A study of Mus musculus with 2 samples.

Results

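The transcription factor genes that maintain hepatocyte identity were followed across cell classes of mouse liver through 9 members: Hnf4a, Foxa1, Foxa2, Foxa3, Cebpa, Cebpb, Onecut1, Prox1 and Nr5a2. Each was taken by its gene symbol, and each symbol matched 1 of the 32285 genes listed in both libraries, so 9 of 32285 genes were described. Single-cell RNA sequencing had been performed on cells released from liver by collagenase perfusion, with 1 library for WT and 1 for N-LKO. WT is the control genotype. N-LKO mice carry loxP-flanked alleles of NgBR (gene symbol Nus1), which albumin-Cre removes in cells that express albumin, so that hepatocytes lose this subunit of the enzyme that makes dolichol. The study used male C57BL6 mice, fed chow while young and then, for 16 weeks, a diet rich in fat, in WT and N-LKO alike. This diet is HFD in the titles and WD in the treatment labels. The WT source is liver, with hepatocytes and nonparenchymal cells mixed in equal parts, and the N-LKO source is liver plus tumor, with tumor cells added. The number of mice behind each library is not given in the sources used here. Genotype, tumor tissue and library therefore cannot be told apart in any comparison, no difference has a replicate check, and the intervals below are 95% intervals that cover counting error only.

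HNF4A is the nuclear receptor on which most hepatocyte-specific genes depend. The FOXA proteins open chromatin at liver enhancers, the C/EBP proteins drive metabolic (C/EBPα) and acute-phase (C/EBPβ) programs, ONECUT1 (HNF6) and PROX1 act early in liver development and remain in adult hepatocytes, and NR5A2 (LRH-1) controls bile acid and cholesterol genes. The cholangiocyte, the epithelial cell of the bile duct, descends from the same progenitor and shares several of these factors.

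Several of these factors are known to bind the promoters of one another, so 4 promoter sequences are given here: the upstream start of Hnf4a and the Foxa2 start that carry an ONECUT match, and the starts of Onecut1 and Cebpa, the genes with the highest and the lowest ratio between the libraries. They are RefSeq windows of 300 bases on GRCm38.p6, from 250 bases before the transcription start to 50 after it, written 5′ to 3′ on the strand of the gene. Capitals mark matches on either strand to the ONECUT letters ATCAAT.

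Hnf4a, upstream start, chr2:163506607-163506906, forward strand: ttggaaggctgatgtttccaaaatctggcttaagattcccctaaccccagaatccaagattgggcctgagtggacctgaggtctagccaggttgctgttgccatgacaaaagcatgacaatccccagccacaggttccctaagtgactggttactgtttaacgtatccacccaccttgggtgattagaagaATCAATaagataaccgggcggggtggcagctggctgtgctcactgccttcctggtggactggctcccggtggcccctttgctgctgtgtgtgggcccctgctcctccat

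Foxa2, chr2:148046920-148047219, reverse strand: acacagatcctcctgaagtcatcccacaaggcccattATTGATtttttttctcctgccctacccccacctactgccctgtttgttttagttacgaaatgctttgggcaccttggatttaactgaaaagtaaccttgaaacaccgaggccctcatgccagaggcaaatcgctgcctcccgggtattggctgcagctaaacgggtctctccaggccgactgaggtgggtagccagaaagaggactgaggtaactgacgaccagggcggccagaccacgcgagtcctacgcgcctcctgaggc

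Onecut1, chr9:74861671-74861970, forward strand: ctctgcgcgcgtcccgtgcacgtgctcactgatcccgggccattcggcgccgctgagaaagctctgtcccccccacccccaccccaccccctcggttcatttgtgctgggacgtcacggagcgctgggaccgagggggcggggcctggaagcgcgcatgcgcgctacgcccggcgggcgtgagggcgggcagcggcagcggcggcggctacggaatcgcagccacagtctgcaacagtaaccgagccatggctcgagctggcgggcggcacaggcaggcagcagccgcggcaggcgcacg

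Cebpa, chr7:35119043-35119342, forward strand: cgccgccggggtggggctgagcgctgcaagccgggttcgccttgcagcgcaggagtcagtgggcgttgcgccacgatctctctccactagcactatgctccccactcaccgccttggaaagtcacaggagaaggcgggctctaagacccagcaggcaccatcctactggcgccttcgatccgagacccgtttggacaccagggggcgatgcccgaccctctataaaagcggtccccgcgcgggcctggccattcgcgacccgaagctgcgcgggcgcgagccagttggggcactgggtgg

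All 9 genes matched the RefSeq table, with 14 windows. The upstream 1 of the 2 Hnf4a windows and 1 of the 3 Foxa2 windows held the ONECUT letters, found in 7.54% of 32851 promoter windows. The FOXA letters TGTTTAC (3.65% of all windows) were in the Foxa1 window, and the C/EBP letters TTGCNNAA (10.8%) in 1 of the 2 Nr5a2 windows. The HNF4 letters CAAAGTCC (1.42%) and the NR5A2 letters CAAGGTCA (1.56%) were in none of the 14. A match is a description of these letters and not a bound site. The motif letters were chosen with these genes in view, none of the motifs overlapped another, and a 3′ assay cannot tell transcripts of the 2 Hnf4a starts apart.

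On GRCm38 with the GENCODE M21 annotation, the genes run from 1.504 kb (Cebpb, a single exon on chromosome 2) to 118 kb (Nr5a2, chromosome 1, reverse strand, up to 9 exons). Onecut1 spans 29.9 kb on chromosome 9 (positions 74861921 to 74891781, forward strand, 2 exons), and Cebpa spans 2.64 kb on chromosome 7 (35119293 to 35121928, forward strand). Hnf4a spans 66.1 kb on chromosome 2 (163506808 to 163572910, forward strand, up to 10 exons), Prox1 52.7 kb on chromosome 1 (190118035 to 190170714, reverse strand), and Foxa1, Foxa2 and Foxa3 6.29, 4.09 and 10.3 kb. The antisense genes Hnf4aos, Prox1os and Gm45091 overlap Hnf4a, Prox1 and Cebpa. Tmem189 overlaps Cebpb on the opposite strand, and Gm20649 overlaps Onecut1 on the same strand, and was not analysed here. Gm28172 also overlaps Prox1. Whether counting used the strand is not stated. Hnf4aos went from 51.3 CPM (UMIs of the gene per 1000000 UMIs of the class) in WT hepatocyte-like cells to 100.2 in N-LKO and Prox1os from 61.1 to 119.8, whereas Gm45091 had at most 0.118 and Tmem189 9.82 and 12.6.

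The WT library held 85522287 UMIs over 100171 barcodes and the N-LKO library 87575064 over 90147. After filtering, 18434 and 19851 cells remained, with medians of 1401 and 1454 UMIs, and 122 of the kept cells had a barcode sequence that a kept cell of the other library also had. None of the 9 genes was among the variable genes used for clustering, which gave 22 clusters, of which 5 were hepatocyte-like and 2 were mixed between classes. The targeted gene went in the direction of its label: Nus1 was at 72.9 CPM in WT hepatocyte-like cells and 33.8 in N-LKO, against 90.6 and 94.05 in endothelial-like cells. Hepatocyte-like cells numbered 9957 in WT, with 16810486 UMIs and a median of 1520 per cell, and 4095 in N-LKO, with 8459321 UMIs and a median of 1776. All 10 hepatocyte markers were detected in each hepatocyte-like cluster, with a summed level of 48397 CPM in WT and 32975 in N-LKO. Cholangiocyte-like cells held 17023 CPM of the same markers in WT and 10079 in N-LKO, so their detection is no test of the name.

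The hepatocyte-like cells of the libraries sat in different clusters, which matters for every value below. Cluster 0 held 8332 WT and 96 N-LKO cells, cluster 9 held 1188 and 15, and cluster 17 held 320 and 7. Cluster 5, whose leading genes included the acute-phase genes Saa1, Saa2 and Orm1, held 116 WT and 1990 N-LKO cells, and cluster 6 held 1 and 1987. Cluster 6 carried 20167 CPM of Malat1 and 3424 of Neat1, which are RNAs retained in the nucleus, against 4549 and 359.6 in cluster 5 of the same library. It took its name from 3 raised hepatocyte markers with a score of 0.203, at a limit of 0.2, and its markers summed to 14140 CPM against 48636 in cluster 5. That sum lay between those of cholangiocyte-like cells in N-LKO (10079 CPM) and in WT (17023 CPM). The name of cluster 6 is thus weakly set, and whether its hepatocyte markers exceed RNA leaked from other cells was not tested. In WT, cluster 17 was likewise rich in Malat1 (35740 CPM, against 8755 in cluster 0) and in Neat1 (3152 against 540.1). In hepatocyte-like cells the 10 endothelial markers summed to 330.3 CPM in WT and 235.6 in N-LKO (4 of 10 at least 1.5-fold lower), the 9 cholangiocyte markers to 748.6 and 1148 (3 of 5 measurable ones higher), and the 9 proliferation markers to 33.6 and 122.5 (6 of 6 higher). The 10 markers of monocytes and macrophages went from 97.5 to 247.5 CPM, with 8 of 8 measurable ones higher in N-LKO. None of these markers was at 0. Of the hepatic stellate markers 5 of 8 measurable ones were lower and 1 higher, and of the erythroid markers 4 of 4 were lower. Over all measurable genes 39.6% were at least 1.5-fold higher in N-LKO and 7.01% lower. The part of the cells behind these markers in the results was not tested.

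Across classes, hepatocyte-like cells held the highest level of Hnf4a and Foxa3 in both libraries, cholangiocyte-like cells the highest level of Onecut1, Foxa1 and Foxa2, and macrophage-like or neutrophil-like cells the highest level of Cebpb. Prox1 was highest in cholangiocyte-like cells in WT and in hepatocyte-like cells in N-LKO. These orders are over the 11 classes plotted, which leave out the few erythroid-like cells. The level of a class includes RNA that leaked from other cells: barcodes under 500 UMIs, read here as free RNA, held all 9 transcripts. No barcode had fewer than 326 UMIs in WT or 377 in N-LKO, and the median barcode had 657 and 774. The pool thus lacks the emptiest barcodes, starts at a different depth in each library and may hold cells. Shares of free RNA are estimates under that limit. From hepatocyte markers, the free RNA share was 48.2% in WT and 45.6% in N-LKO T/NK-like cells, and 47.8% in endothelial-like cells of both libraries. In hepatocyte-like cells the share, from endothelial, Kupffer, T and B markers, was 80.9% in WT and 43.3% in N-LKO, and for 2 members the WT level hardly exceeded what that share would give. Cebpa had 94.8 CPM where free RNA would give 92.2, and Cebpb 111 where it would give 105. In cluster 0 of WT, the largest cluster, they had 95.5 and 106 CPM where that cluster's share would give 95.7 and 109.

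**Figure D1:**
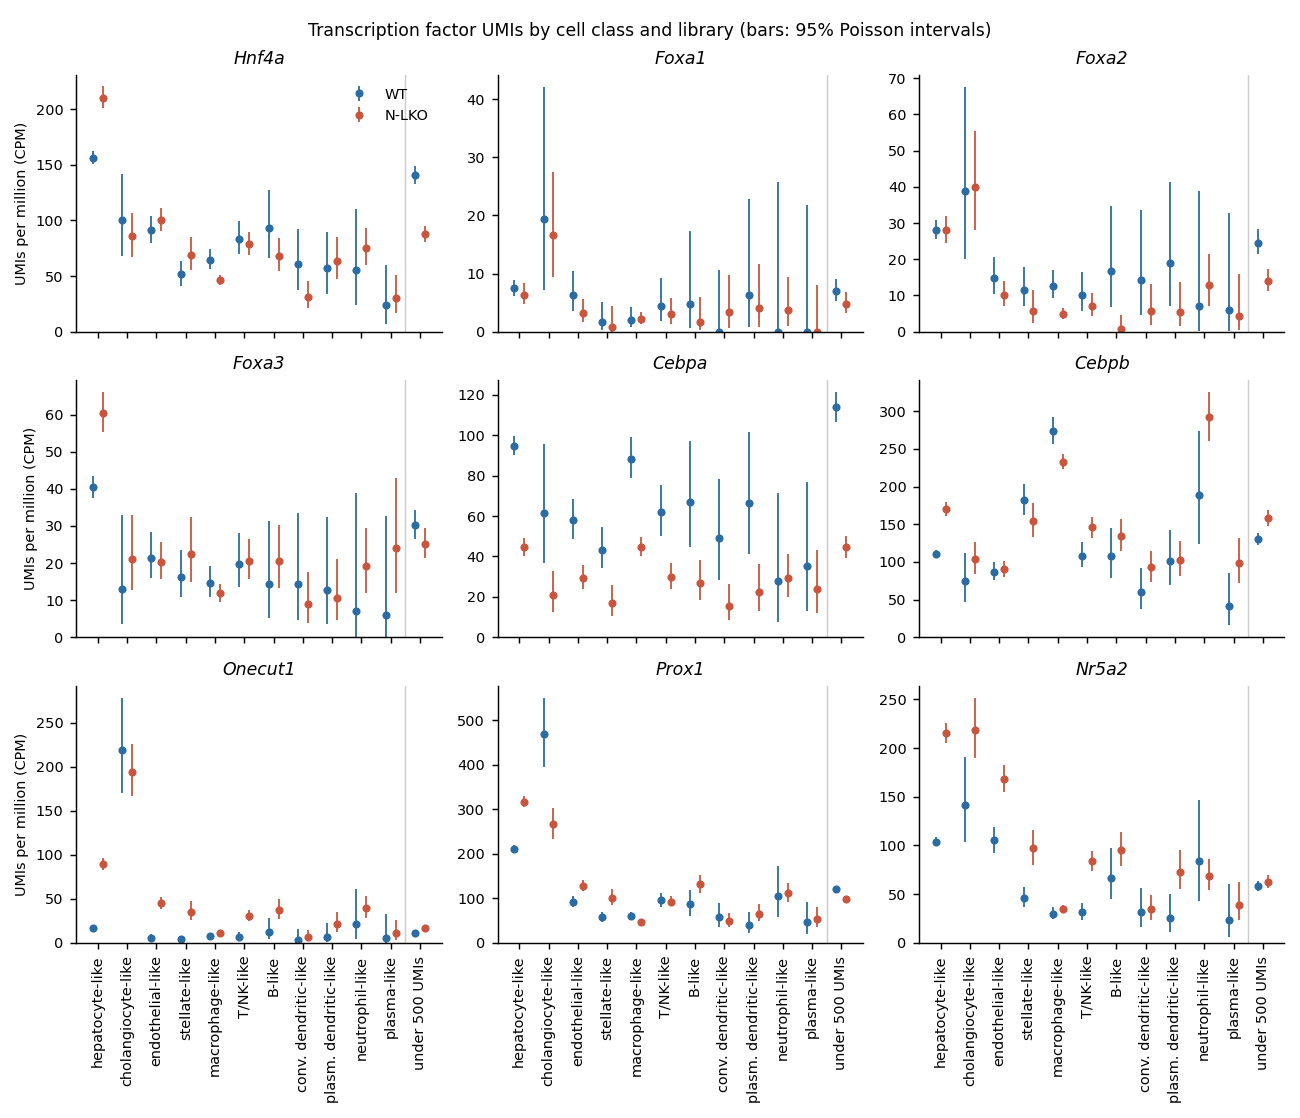
Level of each gene in UMIs per 1000000 (CPM, linear axes from 0) in 11 cell classes and in barcodes under 500 UMIs, with WT in blue and N-LKO in red. Bars are 95% Poisson intervals, and Cebpa lies lower in N-LKO than in WT in each class except neutrophil-like cells, and in the barcodes under 500 UMIs.

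Hnf4a had 2630 UMIs in WT hepatocyte-like cells and 1781 in N-LKO, or 156 CPM (151 to 163) and 211 CPM (201 to 221). The next classes were cholangiocyte-like in WT, at 100.04 CPM (68.0 to 142), and endothelial-like in N-LKO, at 100.4 CPM (90.1 to 112), neither overlapping the hepatocyte-like interval. Below these, the intervals of most neighbouring classes overlapped down to plasma-like cells at 23.6 and 30.6 CPM. Free RNA had 141 CPM in WT and 87.6 in N-LKO. The level in T/NK-like cells was 83.5 CPM in WT, where free RNA at the estimated share would give 68.0, and 79.0 in N-LKO, where it would give 39.9.

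Foxa3 was the FOXA gene with the clearest hepatocyte pattern, at 40.4 CPM (37.4 to 43.5) in WT hepatocyte-like cells and 60.5 CPM (55.4 to 66.0) in N-LKO, against 21.5 and 20.3 in endothelial-like cells. Foxa2 was at 28.2 and 28.0 CPM in hepatocyte-like cells and at 38.7 (20.01 to 67.6) and 40.0 CPM (28.0 to 55.4) in cholangiocyte-like cells, so the order of those classes is not set by the counts. Foxa1 was sparse, with 125 and 54 UMIs in hepatocyte-like cells (7.44 and 6.38 CPM), and cholangiocyte-like cells had 6 and 15 UMIs (19.4 and 16.7 CPM). In N-LKO the cholangiocyte-like interval of Foxa1 (9.33 to 27.5) lay above the hepatocyte-like interval (4.80 to 8.33), while in WT the intervals overlapped.

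Cebpa was not highest in hepatocyte-like cells relative to free RNA: in WT it had 94.8 CPM (90.2 to 99.5) there, 88.5 (78.9 to 99.0) in macrophage-like cells, 58.1 in endothelial-like cells and 114 (107 to 122) in free RNA. In N-LKO the values were 44.4, 44.8, 29.5 and 44.6 CPM. Hepatocyte-like and macrophage-like cells therefore did not differ beyond counting error in either library. Macrophage-like cells stood above the level their free RNA share would give (42.9 CPM in WT and 16.1 in N-LKO). Cebpb was highest in macrophage-like cells of WT, at 274 CPM (257 to 292), followed by neutrophil-like cells at 188 (124 to 274) and hepatic stellate-like cells at 182 (162 to 203). In N-LKO, neutrophil-like cells led at 292 CPM (261 to 326), followed by macrophage-like cells at 233 (223 to 243) and hepatocyte-like cells at 170 (162 to 179). Hepatocyte-like cells of WT had 111 CPM (106 to 116).

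Onecut1 separated cholangiocyte-like from hepatocyte-like cells in WT, at 219 CPM (170 to 278) against 16.8 (14.9 to 18.9). In N-LKO these were 194 CPM (167 to 226) and 89.6 (83.3 to 96.2), with the cholangiocyte-like intervals overlapping between libraries and the hepatocyte-like ones apart. Other WT classes ranged from 2.88 CPM in conventional dendritic-like cells, which is 1 UMI, to 20.9 in neutrophil-like cells, which is 3 UMIs, and free RNA had 11.8. Prox1 was at 468 CPM (395 to 551) and 267 CPM (234 to 303) in cholangiocyte-like cells and at 212 (205 to 219) and 317 (305 to 329) in hepatocyte-like cells. The order of those classes thus differed between the libraries. Nr5a2 was at 142 CPM (103 to 191) and 219 (189 to 252) in cholangiocyte-like cells, 105 and 168 in endothelial-like cells, and 104 (99.2 to 109) and 215 (205 to 225) in hepatocyte-like cells. In WT the last pair did not differ beyond counting error.

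The central comparison was N-LKO over WT in hepatocyte-like cells. Onecut1 was 5.32-fold higher in N-LKO, Nr5a2 2.07-fold and Cebpb 1.54-fold, while Cebpa was at 0.47 of its WT level. In all, 3 of 9 genes were at least 1.5-fold higher, beside 39.6% of 10589 genes with at least 5 CPM, and 1 was at least 1.5-fold lower, beside 7.01% of them. The median log2 ratio was 0.58 for the 9 genes and 0.38 for all genes, a shift that most ratios share. Relative to that shift, 2 genes were higher (22.5% of all genes) and 2 lower (19% of all genes). The share past the limit was thus near the background, and what stood apart was the place of single genes. Onecut1 lay at percentile 97.2 of all genes and Cebpa at percentile 1.87. With the estimated free RNA subtracted and the remaining UMIs rescaled, the log2 ratio of Cebpa turned from −1.09 to 1.71 and that of Cebpb went from 0.62 to 2.53, both from a WT remainder near 0. Under the same choice Prox1 turned from 0.58 to −0.29, Nr5a2 went from 1.05 to 0.17 and Foxa3 from 0.58 to 0.07, while Onecut1 had 1.92 and Hnf4a 0.46. The direction of Cebpa and Prox1 and the size of the Cebpb, Nr5a2 and Foxa3 ratios thus depend on the free RNA estimate. Nr5a2 turned to between −0.25 and −0.09 under 4 other choices of cells or clusters. In each of these 4, cluster 6, or the cluster led by its genes Eda, Garem1 and Prlr, was unnamed or left out. Hepatocyte-like cells of N-LKO then numbered between 2086 and 2587, against 4095 in the main setting.

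By role, the nuclear receptors were both higher: Hnf4a had a log2 ratio of 0.43 (0.34 to 0.52), within 0.05 of the median gene, and Nr5a2 one of 1.05 (0.95 to 1.15). Among the FOXA genes, the log2 ratio was 0.58 (0.42 to 0.75) for Foxa3, just under the 1.5-fold limit, −0.01 (−0.24 to 0.22) for Foxa2 and −0.21 (−0.71 to 0.25) for Foxa1. The C/EBP genes went in opposite directions, with −1.09 (−1.26 to −0.93) for Cebpa and 0.62 (0.52 to 0.72) for Cebpb. The log2 ratio was 2.41 (2.21 to 2.61) for Onecut1. For the homeobox gene Prox1 it was 0.58 (0.51 to 0.66), also just under the limit. Intervals lay above 0 for 6 genes and below 0 for 1. The share of all genes with such intervals is not given here, and the median of all genes was itself 0.38. The split is therefore not read as particular to the members.

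**Figure D2:**
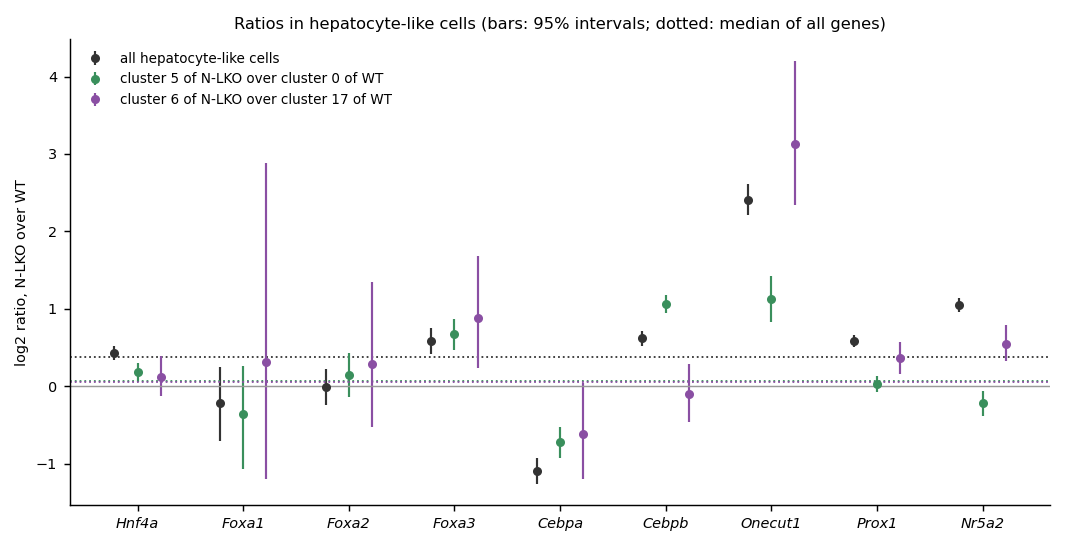
Log2 ratio of N-LKO over WT for each gene over all hepatocyte-like cells (black), for cluster 5 of N-LKO over cluster 0 of WT (green) and for cluster 6 of N-LKO over cluster 17 of WT (purple), with 95% intervals as bars and the median of all genes as dotted lines. Onecut1 and Foxa3 lie above 0 and Cebpa below 0 in each, while Nr5a2, Cebpb, Foxa1 and Foxa2 change side.

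Because the clusters differed between libraries, the levels were read in each. Onecut1 was at 16.6 CPM in cluster 0, 16.6 in cluster 9 and 16.8 in cluster 17 of WT, then at 36.3 (30.9 to 42.4) in cluster 5 and 154 (142 to 167) in cluster 6 of N-LKO. All WT clusters lay below both N-LKO clusters in level, though the interval of cluster 17, with 11 UMIs (8.41 to 30.1), came near that of cluster 5. The 116 WT cells that fell in cluster 5 had 31.1 CPM from 7 UMIs (12.5 to 64.1), which does not differ from N-LKO cells of that cluster beyond counting error. Cebpa was at 95.5 CPM in cluster 0, 114 in cluster 9 and 44.4 (29.7 to 63.8) in cluster 17 of WT, and at 57.7 (50.9 to 65.3) and 29.4 (24.2 to 35.3) in clusters 5 and 6 of N-LKO. For this gene the interval of cluster 17 of WT overlapped those of both N-LKO clusters.

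Cebpb was highest in cluster 5 of N-LKO, at 222 CPM (208 to 236), and clusters 0, 9 and 17 of WT had 106, 153 and 110, where free RNA would give 109, 99.8 and 47.3. Cluster 6 had 103 CPM (93.3 to 114), which overlapped clusters 0 and 17. The 96 N-LKO cells that fell in cluster 0 had 298 CPM from 50 UMIs (221 to 392), above the WT cells of the same cluster. Nr5a2 was highest in the Malat1-rich clusters, with 253 CPM (216 to 294) in cluster 17 of WT and 371 (352 to 391) in cluster 6 of N-LKO, against 102 in cluster 0, 55.5 in cluster 9 and 87.3 in cluster 5. Prox1 was also highest there, at 340 and 437 CPM in clusters 17 and 6 and 213, 147 and 217 in clusters 0, 9 and 5. Hnf4a ranged from 137 CPM in cluster 9 to 251 in cluster 6. Foxa3 was at 29.1 to 41.1 CPM in the WT clusters and at 65.4 and 55.0 in clusters 5 and 6, and Foxa2 ranged from 18.4 to 32.5 CPM over the 5 clusters.

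**Figure D3:**
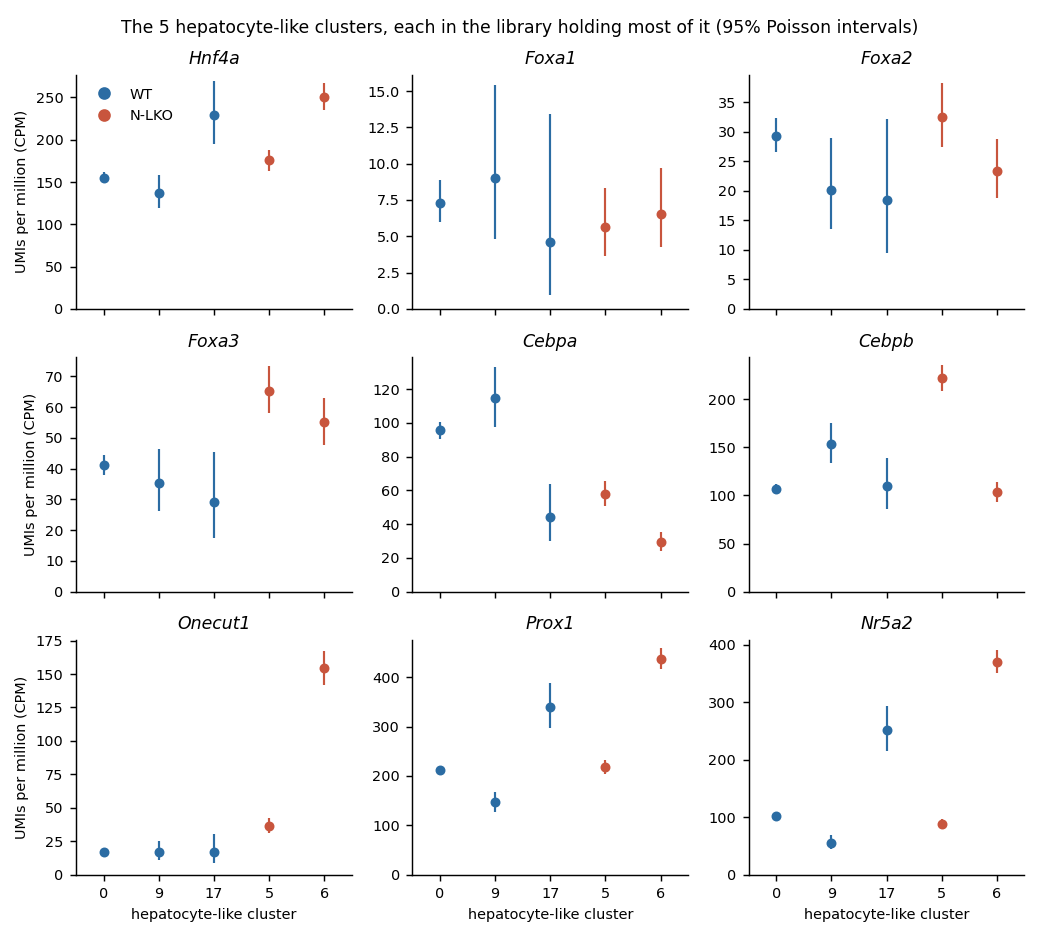
Level of each gene (CPM, linear axes from 0) in the 5 hepatocyte-like clusters, each read in the library that holds most of its cells, WT in blue and N-LKO in red, with 95% Poisson intervals. Clusters 17 and 6 are rich in Malat1, and Nr5a2, Prox1 and Hnf4a are highest in those, whereas Onecut1 is highest in cluster 6 and like the other WT clusters in cluster 17.

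Setting cluster 5 of N-LKO over cluster 0 of WT, the largest hepatocyte-like cluster of each library, gave a median log2 ratio of 0.15 beside 0.07 for all genes. Cebpb (1.06), Onecut1 (1.13) and Foxa3 (0.67) were at least 1.5-fold higher, beside 16.9% of all genes, and Cebpa (−0.72) was at least 1.5-fold lower, beside 8.78%. Nr5a2 had −0.22 (−0.39 to −0.06), Hnf4a 0.18 (0.06 to 0.30) and Prox1 0.03 (−0.08 to 0.13). Setting the Malat1-rich clusters against each other, 6 of N-LKO over 17 of WT, Onecut1 had 3.13 (2.35 to 4.21) and Foxa3 0.89 (0.24 to 1.68), and these 2 were the genes past the limit on the higher side, beside 26.8% of all genes. Cebpa, with −0.62 (−1.20 to 0.04), was the 1 gene past it on the lower side, beside 22.5%. Nr5a2 had 0.55 (0.32 to 0.80), Prox1 0.36 (0.16 to 0.57) and Cebpb −0.10 (−0.46 to 0.29). Onecut1, Foxa3, Hnf4a and Prox1 were above 0 and Cebpa below 0 in the pooled cells and in both pairings, though the interval of Hnf4a (−0.12 to 0.39) and that of Cebpa held 0 in the Malat1-rich pairing and that of Prox1 in the other. Nr5a2, Cebpb, Foxa1 and Foxa2 changed sign. These pairings were chosen after the clusters were seen, and they use cells of the pooled comparison.

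Within N-LKO, cluster 6 over cluster 5 gave log2 ratios of 2.09 for Nr5a2, 2.08 for Onecut1, 1.01 for Prox1, 0.52 for Hnf4a, −0.97 for Cebpa and −1.10 for Cebpb, beside a median of 0.65 for all genes. Within WT, cluster 17 over cluster 0 gave 1.31 for Nr5a2, 0.68 for Prox1, 0.57 for Hnf4a, −1.08 for Cebpa, 0.08 for Onecut1 and 0.06 for Cebpb, beside 0.58 for all genes. Nr5a2 was above and Cebpa below those medians in both libraries, while Hnf4a lay within 0.13 of them. For Onecut1 the intervals of the 2 ratios (1.83 to 2.35 within N-LKO and −1.003 to 0.88 within WT) did not overlap, with 11 UMIs in cluster 17. Whether that last difference exceeds the spread between mice could not be tested with 1 library per group.

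Hepatocyte-like cells were also matched on their share of Malat1 UMIs, in 5 bins of like size set over both libraries. The Onecut1 log2 ratio was 0.71 (−0.01 to 1.40) in the lowest bin, 1.25, 1.52 and 2.60 in the next 3, and 3.11 (2.72 to 3.54) in the highest. Its WT level stayed between 14.8 and 18.9 CPM, and the N-LKO level went from 24.1 to 164 CPM. For Nr5a2 the ratios were 0.03, −0.10, 0.27, 1.57 and 1.30 in the same order, so the difference between libraries lay in the upper 2 bins. Cebpa was lower in N-LKO in each of the 5 bins, from −0.67 (−1.04 to −0.32) in the lowest to −1.47 (−1.87 to −1.11) in the highest. Cebpb was higher in the lower 3 bins (0.75, 1.03 and 0.94) and not in the highest (−0.05, −0.30 to 0.18). Foxa3 was higher in each, between 0.45 and 0.87, and Hnf4a between 0.21 and 0.53. Over all genes the median went from 0.06 in the lowest bin to 0.55 in the next to highest and 0.48 in the highest. Neat1 differed at like Malat1, at 1286 CPM in WT and 3542 in N-LKO in the highest bin, so the bins do not match the libraries on nuclear RNA as a whole, and its part in the ratios was not tested.

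**Figure D4:**
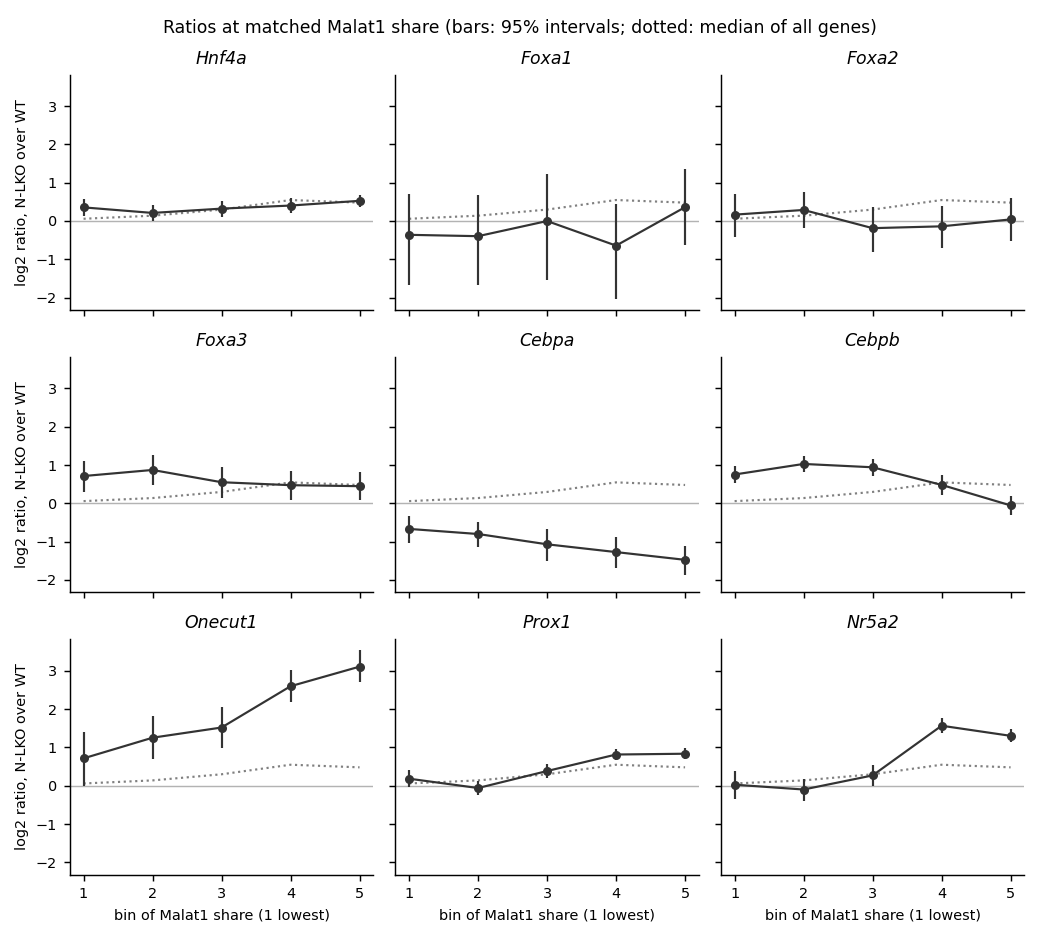
Log2 ratio of N-LKO over WT for each gene in hepatocyte-like cells of the same Malat1 bin, from 1 (lowest) to 5 (highest), with 95% intervals as bars and the median of all genes dotted. Onecut1 goes from 0.71 to 3.11 and Cebpa from −0.67 to −1.47.

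Ratios also moved with the genomic span of a gene. The median log2 ratio of all genes went from −0.12 in the bin with the shortest spans (median 3.26 kb) to 0.99 in the bin with the longest (median 220.7 kb), over 10584 genes with a span in 10 bins. Set against genes of their own bin, Onecut1 stood at 2.01 and Foxa3 at 0.50 above it, Cebpb at 0.74 above it and Cebpa at 0.97 below it (a difference of −0.97). Nr5a2, whose bin had a median of 0.86, was 0.19 above it, Prox1 0.04 above it, and Hnf4a below it by −0.28. The pooled excess of Nr5a2, Prox1 and Hnf4a was thus near or under that of genes of like span.

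**Figure D5:**
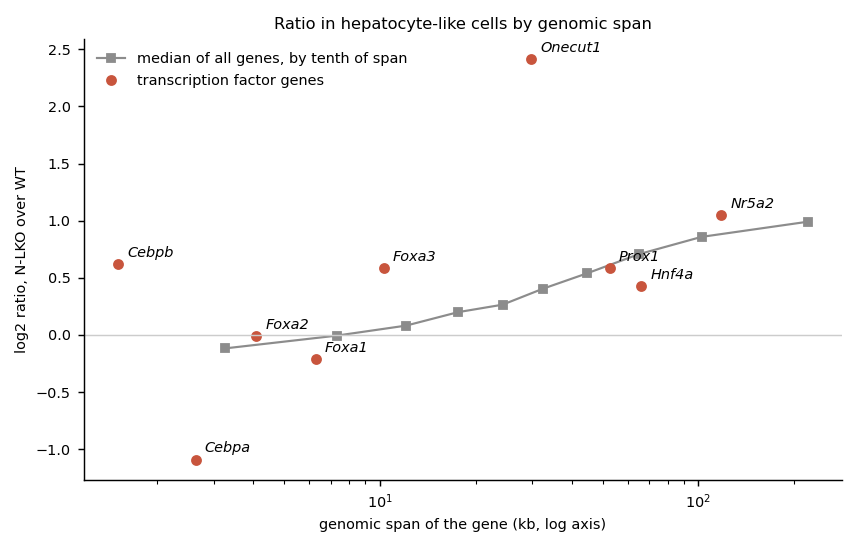
Log2 ratio of N-LKO over WT in hepatocyte-like cells against genomic span in kb (log axis), for the 9 genes in red and, in grey, the median of all genes in each of 10 bins of span. The grey line climbs from −0.12 to 0.99, Nr5a2, Prox1 and Hnf4a lie within 0.28 of the median of their bin, and Onecut1 and Cebpa lie far from it on opposite sides.

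The share of cells with at least 1 UMI was read after thinning each cell to 1000 UMIs. Onecut1 was detected in 1.57% (1.33 to 1.83) of WT hepatocyte-like cells and 7.67% (6.87 to 8.53) of N-LKO ones, or 2.82% and 14.4% without thinning, and in 12.3% of cluster 6. In T/NK-like cells, which should lack it, the shares were 0.758% and 2.12% (median depths 1190 and 1358 UMIs before thinning). Nr5a2 went from 9.63% (9.06 to 10.2) to 18.0% (16.8 to 19.2), or 15.7% and 30.9% without thinning, beside 3.03% and 6.56% in T/NK-like cells. Hnf4a went from 13.9% to 18.4% (22.5% and 32.6% without thinning), beside 8.25% and 6.46%. Cebpa went from 9.35% (8.79 to 9.94) to 4.37% (3.77 to 5.04), or 14.5% and 8.25% without thinning, and from 6.48% to 2.22% in T/NK-like cells. Both Cebpa shares were lower in N-LKO. T/NK-like cells had a lower estimated share of free RNA than WT hepatocyte-like cells (48.2% against 80.9%), so their values are no measure of the background in the latter, and the WT Cebpa share is not read as standing above it.

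Detection of several members in the same cell was rare at this depth. After thinning, none of the 9 transcripts was found in 46.3% of hepatocyte-like cells in WT and 34.2% in N-LKO, and 2.65% (2.34 to 2.99) and 6.01% (5.30 to 6.78) had at least 3. Cluster 6 had 8.203% with at least 3, cluster 5 3.92%, cluster 17 had 5% and cluster 0 of WT 2.70%. No hepatocyte-like cell had more than 5. In T/NK-like cells 0.253% and 0.981% had at least 3, below the hepatocyte-like values of the same library. For WT the T/NK-like value is again no measure of the background, because of the lower free RNA share of those cells. A cell with no UMI of a gene cannot be read as lacking it.

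Outside hepatocyte-like cells the members also differed between the libraries, and several did so across classes at once. The interval of Cebpa lay below 0 in 9 of the 11 classes compared, counting hepatocyte-like cells, with plasma-like and neutrophil-like cells the exceptions. Its log2 ratios were −0.98 (−1.36 to −0.60) in endothelial-like, −0.98 in macrophage-like, −1.05 in T/NK-like and −1.34 in hepatic stellate-like cells, and the free RNA went from 114 to 44.6 CPM. Onecut1 had log2 ratios of 2.88 (2.14 to 3.83) in endothelial-like cells (14 and 155 UMIs), 3.04 in hepatic stellate-like cells (7 and 44 UMIs) and 2.05 in T/NK-like cells (11 and 90 UMIs), and free RNA at the estimated shares would give 5.62 and 7.83 CPM in endothelial-like cells, where 5.90 and 44.9 were observed. In cholangiocyte-like cells it had −0.18 (−0.59 to 0.25) and in macrophage-like cells 0.48 (−0.13 to 1.16). Neat1, abundant in cluster 6, moved beside it, from 214.8 to 988.5 CPM in endothelial-like and from 165.0 to 740.7 in T/NK-like cells. The part of Neat1-rich cells in these levels was not tested.

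Nr5a2 had a log2 ratio of 0.67 (0.46 to 0.89) in endothelial-like, 1.41 in T/NK-like and 1.06 in hepatic stellate-like cells. Prox1, which also marks lymphatic endothelium, had −0.81 (−1.11 to −0.50) in cholangiocyte-like cells, 0.47 in endothelial-like cells and −0.37 in macrophage-like cells. Cebpb had −0.23 (−0.35 to −0.12) in macrophage-like cells. Hnf4a had −0.48 (−0.72 to −0.24) in macrophage-like cells and 0.13 (−0.11 to 0.39) in endothelial-like cells. In cholangiocyte-like cells 1 of 9 members, Nr5a2, was at least 1.5-fold higher, beside 22.6% of all genes, and 2, Cebpa and Prox1, were at least 1.5-fold lower, beside 23.6%. In endothelial-like cells 2 members were higher (22.9% of all genes) and 2 lower (17.2%), and in macrophage-like cells none was higher (10.6%) and 2 were lower (14.2%).

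Other transcription factors of the hepatocyte were read from lists chosen by function. Among 15 nuclear receptors, 7 were at least 1.5-fold higher in N-LKO, beside 39.6% of all genes, and 2 lower, beside 7.01%, and their median log2 ratio was 0.51 beside 0.38 for all genes. Relative to the median gene 3 were higher and 4 lower, beside 22.5% and 19% of all genes. Ppara, the fatty acid sensor, had 1.43 (252 and 681 CPM) and the bile acid receptor Nr1h4 1.02, while Nr2f2 had −1.001 and Nr2f6 −0.44. Between cluster 5 of N-LKO and cluster 0 of WT the list's median was −0.24 beside 0.07 for all genes, where Ppara had −0.09, Nr1h4 −0.24 and Nr2f2 −1.02.

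Among 23 other hepatocyte factors, 12 were higher, beside the same 39.6% of all genes, and 1 was lower, with a median of 0.59 that became −0.14 in that pairing. Relative to the median gene 5 were higher and 3 lower. Cux2 had 3.11 (13 and 58 UMIs), the insulin-regulated factor Foxo1 1.74 and Gata6 1.68, against −1.79 for the lipogenic factor Srebf1, −0.44 for Creb3l3 and −0.36 for Klf15. Cux2 had 4.27 between the Malat1-rich clusters and −0.49 between clusters 5 and 0. Both rest on parts of the 13 WT UMIs, so the 0.5 UMI added to each sum weighs on their size. Srebf1 had −1.90 between clusters 5 and 0 and −1.74 between clusters 6 and 17.

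Lists of genes chosen as targets of the FOXA, NR5A2 and C/EBP factors, whatever the direction of the regulation, had lower medians than all genes. Over all genes 39.6% were higher and 7.01% lower, with a median of 0.38, and relative to that median 22.5% were higher and 19% lower. Of 12 measurable FOXA targets none was higher and 4 were lower (none and 10 relative to the median gene), with a median of −0.41, led by the bile acid carrier Slc10a1 (−1.99, 280.6 and 70.6 CPM), Tat (−1.47) and G6pc (−1.21), and the highest were Abcc2 (0.43), Cpt1a (0.32) and Igfbp1 (−0.28). Of 12 NR5A2 targets 1 was higher, Scarb1 (1.25), and 4 were lower (1 and 6 relative to the median gene), with a median of −0.18. Fasn had −2.51 (425 and 74.7 CPM), the bile acid synthesis gene Cyp8b1 −1.94 (159 and 41.3 CPM) and Gls2 −1.71, and Apoa1 had 0.38. Between clusters 5 and 0 the medians of these lists were −0.29 and −0.32, and between clusters 6 and 17 −1.14 and −1.72, beside 0.07 and 0.06 for all genes. The lists share genes, so their counts are not independent, and they were not set against genes of like span.

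Of 15 C/EBP targets, 5 were at least 1.5-fold higher and 3 lower (4 and 7 relative to the median gene), with a median of −0.03. Between clusters 5 and 0 the median was −0.04, near the 0.07 of all genes, and between clusters 6 and 17 it was −0.29 beside 0.06. The acute-phase genes Lcn2 (4.29, 14.9 and 293 CPM) and Saa1 (2.61, 78.5 and 481 CPM) led the higher side, with Ppara, and Hp (1.43) and Orm1 (0.84), named here after their values were seen, completed it. Tat, G6pc and Alb (−1.02, 21818 and 10792 CPM), which serve amino acid breakdown, glucose production and plasma protein supply, were the lower ones. The other 7 did not pass the limit and lay between −0.55 for Tdo2 and 0.25 for Fga, which were also named after their values were seen. Apart from Ppara (−0.09), the 8 genes past the limit kept their sign between clusters 5 and 0, where Lcn2 had 5.50, Saa1 3.59, Tat −1.27, G6pc −1.27 and Alb −0.54.

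Of 18 measurable partners, inhibitors and opposing regulators, 9 were higher, beside 39.6% of all genes, and 1 lower, beside 7.01%, with a median of 0.58 beside 0.38. Relative to the median gene 6 were higher and 1 lower. Tead1, the DNA-binding partner of YAP, had 2.16, the progenitor factor Sox4 1.60 (115 and 176 UMIs) and the coactivator Ncoa2 1.53, whereas the inhibitor Id2 had −0.93, Id3 −0.17 and the biliary factor Sox9 −0.08. Between clusters 5 and 0, Sox4 had 1.61, Tead1 0.82 and Ncoa2 0.03. The list of early response and heat shock genes, induced when cells are isolated, was higher for 4 of 16 and lower for 1 (3 and 4 relative to the median gene), with a median of 0.26 over all hepatocyte-like cells, 0.66 between clusters 5 and 0 and −0.94 between clusters 6 and 17. Fosb had 2.07, Atf3 1.56, Btg2 1.14, Jund −0.22, Nr4a1 −0.37 and Dusp1 −0.72. Cebpb moved in the same order over these comparisons, at 0.62, 1.06 and −0.10. The part of isolation in its level was not tested.

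Finally, the genes most like each member were sought over 23 points, each a cell class in 1 library with at least 100 cells, among 13515 genes. Among the genes closest to Onecut1 were Sorbs2 (Pearson's r of 0.96) and Clmn (0.93), and Hnf4a was closest to Ccs (0.93), Abhd17c (0.93) and Pter (0.90). Prox1 was closest to Naaladl2 (0.93), Erbb4 (0.93) and Errfi1 (0.92), and Nr5a2 to Pde4d (0.93), Sh3d19 (0.92) and Gphn (0.91). The metabolic genes Idh1 (0.90), Lap3 (0.86) and Sdhc (0.86) were closest to Cebpa, and Lrp1 (0.90), Tnfrsf1b (0.89) and Abcd2 (0.89) to Cebpb. The FOXA genes had weaker matches, Rnase4 (0.83), Gm15622 (0.83) and Gm48633 (0.82) for Foxa3, Mkln1os (0.83), Smco4 (0.81) and Cldn2 (0.81) for Foxa1, and 2610528J11Rik (0.79), Tmem238 (0.78) and Pnkd (0.78) for Foxa2. The points share 2 libraries and their free RNA, and the values are a description.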

How the data were processed

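Single cells of 1 WT and 1 N-LKO library had been captured with a 10x 3′ kit, and the authors deposited UMI counts per gene and barcode, made with Cell Ranger 7.1.0 per the file headers. The submitters' processing notes name mm9 and Seurat. The files hold gene IDs and no coordinates, so positions given here come from GRCm38. Whether introns and strand were counted is not given in the sources used here.

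Barcodes with at least 1000 UMIs, at least 400 genes and at most 30% mitochondrial UMIs were kept. Barcodes with a Scrublet score over 0.25 were removed as doublets (8.55% of WT and 10.6% of N-LKO). Cells were clustered with scanpy 1.11.5 and leidenalg 0.10.2 on 2000 variable genes, 30 components, 20 neighbours and a resolution of 0.3. Classes were named from marker lists (score of at least 0.2 with 3 or more raised markers). UMIs were summed per class and library and scaled to 1000000 (CPM). Ratios add 0.5 UMI, and intervals are exact Poisson for levels, exact conditional binomial for ratios and Clopper-Pearson for shares, at 95%. Genes with at least 5 CPM in a library were compared, and at least 1.5-fold counted as higher or lower. The ratios and intervals were tested on simulated Poisson counts with known folds. Those counts held no free RNA, clusters, shift shared by all genes or spread between mice, so the test does not cover these. With 1 library per group no test between groups was made.

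All 9 members are named, with the genes of the 3 highest and 3 lowest ratios of each list and the 3 genes most correlated with each member. Members, lists and motifs were chosen with earlier results of these data known, so a list's counts support nothing independently. A few genes, 1 gene list and 1 motif are not reported here.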

Additional observations from a re-analysis of the deposited data

Results flagged for a closer look

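In 5 instances the ratio of N-LKO over WT went the opposite way in another class than in hepatocyte-like cells, with both intervals clear of 0. The differences between classes were not tested, since each group had 1 library. The median of all genes was 0.38 in hepatocyte-like cells, against −0.04 in macrophage-like, 0.01 in cholangiocyte-like and 0.03 in conventional dendritic-like cells. The share of all genes with such a reversal is not given here, so the 5 instances are not read as particular to the members. Hnf4a had a log2 ratio of −0.48 (225 and 388 UMIs) in macrophage-like cells and −0.96 (21 and 28 UMIs) in conventional dendritic-like cells, against 0.43 in hepatocyte-like cells. Cebpb had −0.23 in macrophage-like cells (274 and 233 CPM) against 0.62. Prox1 had −0.81 in cholangiocyte-like cells (468 and 267 CPM) and −0.37 in macrophage-like cells (60.8 and 47.0 CPM) against 0.58. For Hnf4a the free RNA also had less, at 141 CPM in WT and 87.6 in N-LKO, and for Prox1 121 and 97.7, whereas for Cebpb it had 130 and 158. The part of free RNA in these differences was not tested.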

How the results depend on the processing

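No paired analysis was possible because the groups share fewer than 2 replicate numbers. Of 16 alternatives, 2 (the pairings of single clusters) were chosen after seeing the data. The median log2 ratio of the 9 members, 0.58, became 0.13 with a minimum of 500 UMIs, 0.19 with no mitochondrial limit, 0.17 at a clustering resolution of 0.8, 0.21 scaled to the median of all genes, 0.17 with free RNA subtracted, 0.12 without the hepatocyte-like clusters rich or poor in Malat1, 0.11 relative to genes of like span, 0.32 for cluster 6 over 17 and 0.15 for cluster 5 over 0. The 3 higher members became 6 with a mitochondrial limit of 10%, and the 1 lower member became 2 with a minimum of 2000 UMIs or scaling to the median, and 0 with free RNA subtracted. Of these settings, the share of all genes past the limit is given only for scaling to the median (19% lower). The 10% limit left 676 WT and 712 N-LKO hepatocyte-like cells. These counts are not read as results about the members. Nr5a2 turned to −0.089 with a minimum of 500 UMIs, −0.22 with no mitochondrial limit, −0.25 at a resolution of 0.8, −0.24 without clusters rich or poor in Malat1 and −0.22 for cluster 5 over 0. Each of these choices left out cluster 6, or an unnamed cluster led by the same genes, so they are not separate checks. The medians under the same choices share this. Cebpb turned to −0.19 with a mitochondrial limit of 10% and −0.10 for cluster 6 over 17, and Cebpa to 1.71 and Prox1 to −0.29 with free RNA subtracted, which also moved Cebpb to 2.53, Nr5a2 to 0.17 and Foxa3 to 0.07. Hnf4a turned to −0.28 relative to genes of like span and Foxa1 to 0.32 for cluster 6 over 17, and Foxa2, at −0.01, was on the other side of 0 in 10 of 16 alternatives. Onecut1 stayed at least 1.5-fold higher in 16 of 16 alternatives, from 0.95 to 3.13, and Cebpa at least 1.5-fold lower in 15. The alternatives share cells, several leave out cluster 6, and dropping the minimum CPM cannot change the ratio of a gene. Those counts are therefore not counts of separate checks. The causes were not tested. Depth limits Foxa1, with 54 UMIs in N-LKO hepatocyte-like cells, and every statement on cells without a transcript.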
